A study of Mus musculus with 407 samples.

Results

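Interferon-induced genes are those that a cell switches on when interferon reaches its surface. The 44 genes described here were taken as a fixed list of symbols of well-known genes of this kind, out of 24458 gene symbols in the count tables, and all 44 were found and passed the filter on low counts in every comparison. By what their products do they fall into 9 groups: 5 transcription factors (Irf1, Irf7, Irf8, Irf9 and Stat2), 5 sensors of foreign or unusual nucleic acid (Ddx58, Ifih1, Dhx58, Zbp1 and Eif2ak2), 5 oligoadenylate synthetases or their relatives (Oas1a, Oas2, Oas3, Oasl1 and Oasl2), 3 Ifit genes, 7 other antiviral effectors (Mx1, Mx2, Rsad2, Isg20, Bst2, Ifitm3 and Samhd1), 4 genes of the ISG15 system (Isg15, Usp18, Herc6 and Trim25), 3 genes of ADP-ribosylation (Parp9, Parp14 and their partner Dtx3l), 6 interferon-inducible GTPases (Gbp2, Gbp3, Gbp7, Iigp1, Igtp and Irgm1) and 6 others (Ifi35, Ifi44, Ifi27, Rtp4, Xaf1 and Lgals3bp).

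Type I interferons (interferon alpha and beta) are made by many cells that sense viral or misplaced nucleic acid, and interferon gamma (type II) is made mainly by T and NK cells. Both act through receptors on the target cell. Type I interferon assembles a complex that holds Stat2 and Irf9 and binds the interferon-stimulated response element (ISRE), and interferon gamma acts through the gamma-activated sequence (GAS). Antiviral genes such as Mx1, Isg15 and the Oas and Ifit genes are known mainly as targets of the first, and the GTPases and Irf1 respond strongly to the second, although most of these genes can answer to both. Skeletal muscle fibres, the vessels between them and resident immune cells all carry interferon receptors.

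The RNA was from the diaphragm, gastrocnemius, soleus and tibialis anterior (TA) of male and female C57BL/6J mice, an inbred strain, aged 6 months (called young from here on), 12, 18, 21 or 24 months, or 27 months (called old), with 6 to 10 libraries for each muscle, sex and age (407 in all). The labels name no treatment and no altered allele, and say that the mice were kept free of specified pathogens. The strain carries a defective Mx1 gene, so its values here are levels of transcript only. Tissues of an age were collected on the same day, so age and collection day cannot be told apart, and no label ties the muscles of 1 mouse together. These are whole muscles, in which more cells of a type and more RNA per cell cannot be told apart.

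Total counts ranged from 38583802 to 300089909 per library (median 72766895). Levels are given as CPM, counts set in proportion to the size of the library, after scaling by edgeR's trimmed mean of M values (TMM), and differences are on the log2 scale. In 3 libraries the mean log2 CPM of 9 liver genes was above 5 (the others reached 4.91): female soleus at 18 months replicate 6, male diaphragm at 21 months replicate 3 and male diaphragm at 27 months replicate 6. Sample numbers, which fall into 3 runs for the diaphragm, 4 for the soleus and 2 for the TA, were unevenly spread over ages, most of all in the male diaphragm.

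Several of the genes lie beside relatives (positions on GRCm38.p6). Oas1a (chr5:120896256-120907544), Oas2 (chr5:120730333-120749886) and Oas3 (chr5:120753098-120777684) are neighbours, as are Gbp2 (chr3:142620663-142638008), Gbp3 (chr3:142560016-142573213) and Gbp7 (chr3:142530336-142550151), and Ifit1 (chr19:34640889-34650009) and Ifit3 (chr19:34583119-34588982). Reads that fit more than 1 member of such a family may be split by the counting in a way that the values do not show, so levels of single members are less certain than those of genes without a close copy. Zbp1 is at chr2:173206612-173218959, Igtp at chr11:58199556-58207592 and Irf7 at chr7:141263183-141266499.

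The region just before the transcription start site carries the elements through which interferon acts. RefSeq promoter entries on GRCm38.p6, from 250 bases before to 50 bases after the start site, were found for 33 of the 44 genes. They were searched on both strands for the core of the ISRE, 2 GAAA blocks with any 2 bases between them, and for the core of the GAS, TTCNNNGAA, which reads the same on either strand. The first stood in 17 of these 33 genes (51.5%) and in 3.99% of all 27025 genes with an entry. The second stood in 12 (36.4%) and in 9.55% of all. Both were found in 6 genes and neither in 10. A match is a description of letters and shows no binding.

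The 180 bases before the start site are given for those genes that passed the test in 2 or more of the 8 comparisons of 27 with 6 months described further on and that hold a match in this stretch (8 genes of 12, since Zbp1, Oas2 and Iigp1 have no entry and that of Irf7 holds no match). They run 5′ to 3′ in the direction of the gene, with matches to either motif in capitals. Irf1, the regulator of many GAS genes, is at chr11:53769834-53770013 (plus strand), Irf8, a factor of macrophages and dendritic cells, at chr8:120736178-120736357 (plus), Oas1a at chr5:120907526-120907705 (minus) and Oas3 at chr5:120777660-120777839 (minus). They were chosen to show which of the 2 elements stand near the start sites of the genes that changed most often. Ifit3 is at chr19:34583349-34583528 (plus), Rsad2, which makes the antiviral enzyme viperin, at chr12:26456453-26456632 (minus), Gbp3 at chr3:142559864-142560043 (plus) and Igtp at chr11:58199376-58199555 (plus).
Irf1: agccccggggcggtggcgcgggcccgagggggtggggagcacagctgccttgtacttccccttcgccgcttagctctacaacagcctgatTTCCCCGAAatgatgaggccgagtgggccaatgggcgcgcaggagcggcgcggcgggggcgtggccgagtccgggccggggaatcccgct
Irf8: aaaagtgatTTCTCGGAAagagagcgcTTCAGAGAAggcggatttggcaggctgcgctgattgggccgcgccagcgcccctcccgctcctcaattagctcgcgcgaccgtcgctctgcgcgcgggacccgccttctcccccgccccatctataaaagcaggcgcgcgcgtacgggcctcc
Oas1a: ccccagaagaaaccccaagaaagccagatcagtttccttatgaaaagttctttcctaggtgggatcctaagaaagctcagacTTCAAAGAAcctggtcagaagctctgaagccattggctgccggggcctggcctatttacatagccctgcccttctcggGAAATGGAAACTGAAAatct
Oas3: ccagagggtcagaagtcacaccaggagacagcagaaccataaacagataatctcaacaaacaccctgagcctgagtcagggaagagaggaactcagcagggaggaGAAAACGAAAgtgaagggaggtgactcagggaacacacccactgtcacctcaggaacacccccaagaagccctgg
Ifit3: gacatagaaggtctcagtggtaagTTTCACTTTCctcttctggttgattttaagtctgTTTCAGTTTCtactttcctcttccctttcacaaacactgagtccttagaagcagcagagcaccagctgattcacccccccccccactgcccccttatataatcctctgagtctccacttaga
Rsad2: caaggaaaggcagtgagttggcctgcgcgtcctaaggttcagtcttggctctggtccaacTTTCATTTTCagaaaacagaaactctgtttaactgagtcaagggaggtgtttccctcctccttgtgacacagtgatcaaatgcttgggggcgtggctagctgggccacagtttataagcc
Gbp3: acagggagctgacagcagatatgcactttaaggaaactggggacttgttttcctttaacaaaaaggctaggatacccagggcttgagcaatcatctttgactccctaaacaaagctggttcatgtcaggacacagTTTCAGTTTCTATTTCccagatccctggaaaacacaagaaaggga
Igtp: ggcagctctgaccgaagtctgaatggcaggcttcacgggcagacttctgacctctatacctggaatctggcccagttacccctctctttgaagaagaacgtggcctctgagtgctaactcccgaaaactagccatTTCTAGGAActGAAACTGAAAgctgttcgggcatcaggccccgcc
In this stretch Irf1 and Irf8 held only the GAS core, at 1 and 2 places. Oas3, Ifit3, Rsad2 and Gbp3 held only the ISRE core on one strand or the other, with 2 overlapping matches in Gbp3. Oas1a and Igtp held both, and in Oas1a 2 matches to the ISRE core overlapped close to the start site.

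In young adult mice (6 months, 8 libraries per muscle and sex) the 44 genes spanned a wide range per length of transcript. Ifitm3, a membrane protein that blocks virus entry, was the highest in each muscle and sex, with a median level of 43.6 CPM per kilobase of exon (CPM/kb) in the male diaphragm, 55.6 in the female diaphragm and 18.4 to 25.7 in the limb muscles. Oas3, which makes the short oligoadenylates that activate RNase L, was the lowest in each, from 0.0116 CPM/kb in the male TA to 0.083 in the female diaphragm, and Mx1 was next above it in each. On the scale of CPM, without length, the highest were Parp14, Dtx3l or Samhd1, for example Parp14 at 34.4, 47.6 and 67.6 CPM (lowest, median and highest library) in the female diaphragm and Samhd1 at 22.8, 23.4 and 24.8 CPM in the male gastrocnemius. The lowest by this scale were Mx1 or Oas3, for example Mx1 at 0, 0.0576 and 0.13 CPM in the female TA and Oas3 at 0, 0.0827 and 0.217 CPM in the male soleus.

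**Figure D1:**
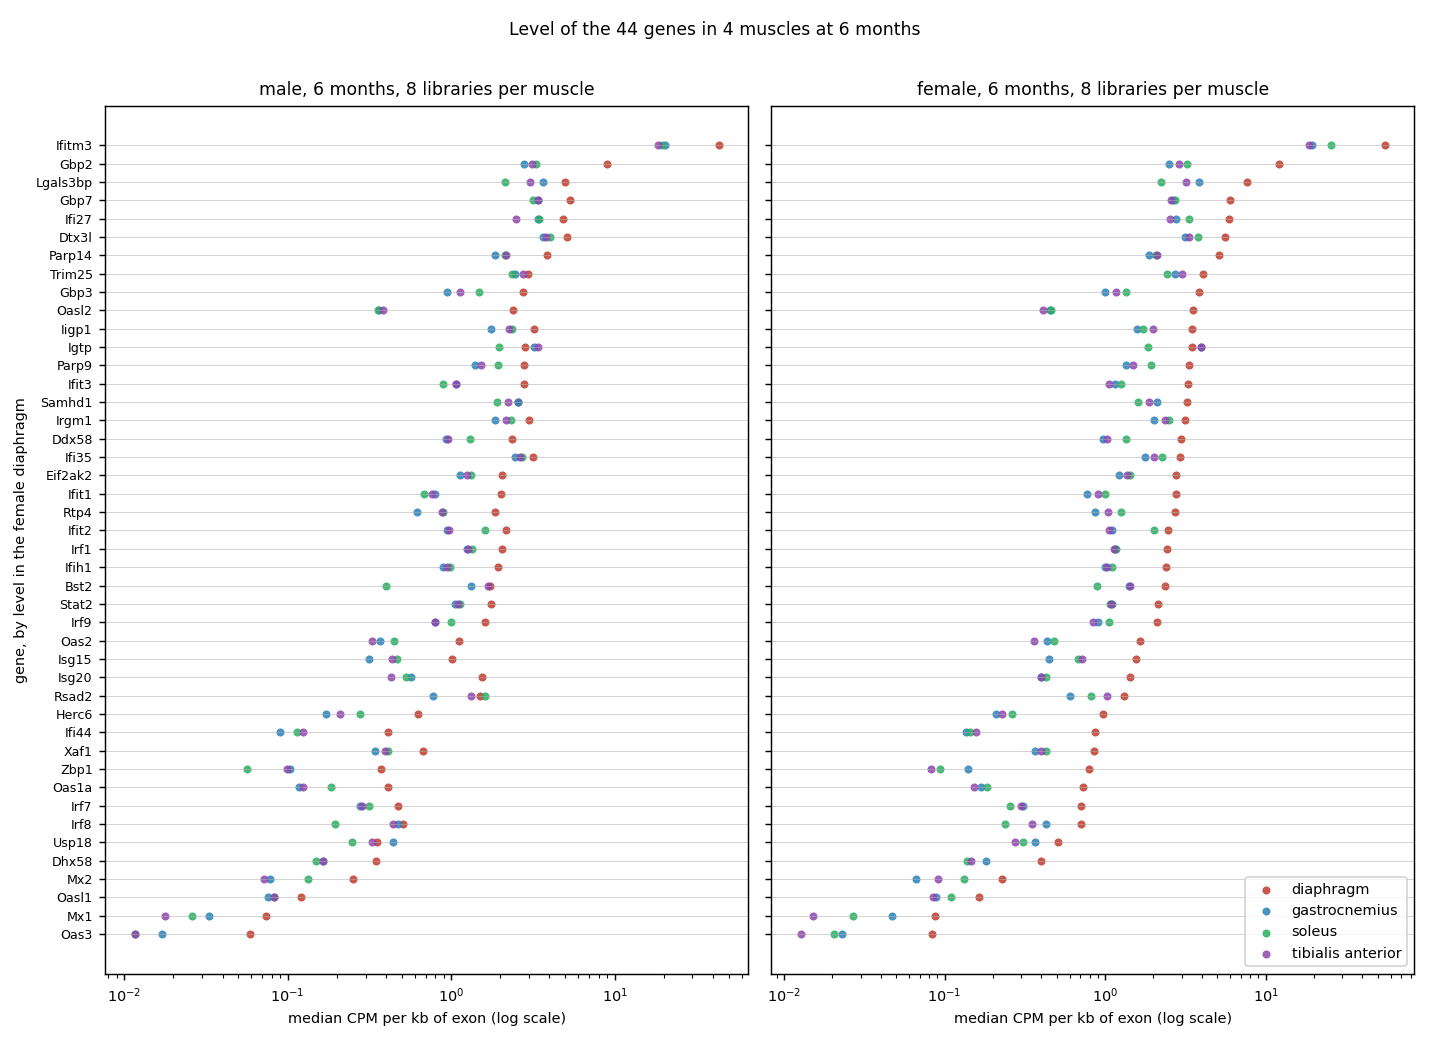
Median level of each of the 44 genes at 6 months in CPM per kilobase of exon (x axis, log scale), with males at the left, females at the right and muscles by colour. Genes are ordered by the level in the female diaphragm, from Oas3 (0.083) to Ifitm3 (55.6), and the diaphragm lies to the right of the limb muscles for most genes.

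At 6 months the diaphragm held more of these transcripts than the limb muscles did. Against the mean of the 3 limb muscles, 27 of 44 genes were higher in males and 42 of 44 in females at an adjusted p below 0.05 and a fold change above 1.5 (called from here on), and 0 were lower. Of all genes tested, 23% were called higher in males and 30.1% in females. The median log2 difference of the 44 genes was 0.817 in males and 1.35 in females, where that of all genes was -0.0167 and 0.0782.

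The largest differences were of Zbp1, the sensor of Z-form nucleic acid, with a log2 difference of 3.25 ± 0.37 (SE) in females and 2.12 ± 0.52 in males, and of Oasl2, with 2.89 ± 0.21 and 2.56 ± 0.32. Oas3 differed by 2.86 ± 0.45 and 1.80 ± 0.68 and Ifi44 by 2.63 ± 0.25 and 1.90 ± 0.38. All 5 nucleic acid sensors and all 3 Ifit genes were called in both sexes. Of the 5 transcription factors all were called in females and Irf9 alone in males. The 2 genes not called in females were Igtp, at 0.53 on the log2 scale, and Ifi35, at 0.44. In males Igtp, Usp18 (which removes ISG15 from proteins) and Ifi35 had values of -0.12, -0.13 and -0.02.

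Immune cell genes lay in the same direction: all 21 macrophage markers and all 8 B and plasma cell markers tested were also called higher in the diaphragm, in both sexes, and the summed level of the macrophage markers at 6 months was 361 to 836 CPM in the female diaphragm against 50 to 231 in the female limb muscles. Their part in the difference was not tested. With a term for the run of sample numbers the male count was 14 and the male median 0.619. With DESeq2's size factors, which moved the median of all genes in males from -0.0167 to 0.186, the male median of the 44 genes was 1.02, and 69.4% of all calls were higher in the diaphragm where 54.8% were with TMM.

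The question of the time course is whether these genes change as the muscle ages. Each older age was compared with 6 months within each muscle and sex. At 27 months every called gene of the 44 was higher, and the number called was 13 in the male diaphragm, 0 in the male gastrocnemius, soleus and TA, 1 in the female diaphragm, 5 in the female gastrocnemius, 7 in the female soleus and 14 in the female TA. The share of all genes called higher was, in the same order, 4.16%, 3.88%, 0.808%, 2.81%, 0.543%, 4.08%, 1.72% and 5.93%. The median log2 fold change of the 44 genes was 0.564, 0.194, 0.0474 and 0.185 in the 4 male muscles and 0.536, 0.398, 0.418 and 0.508 in the female ones, where the median of all genes lay between -0.0262 and 0.0283.

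**Figure D2:**
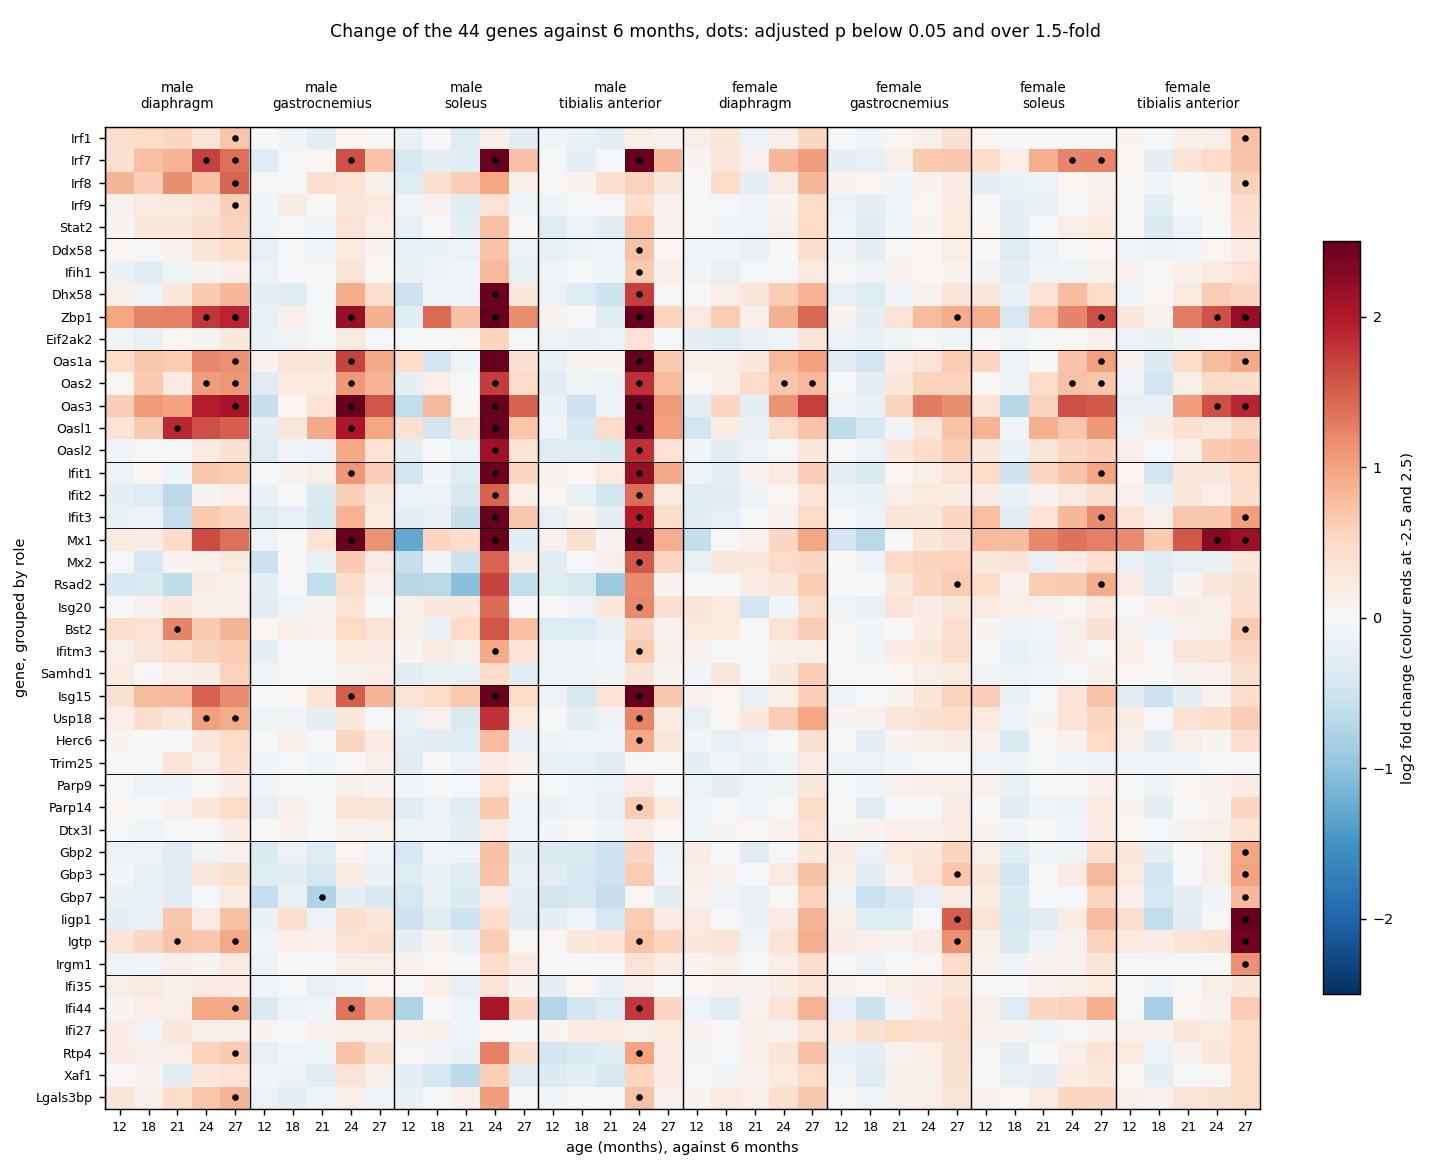
Log2 fold change of each of the 44 genes (rows, grouped by role) at each older age against 6 months (columns) in each muscle and sex. The colour scale stands beside the plot and a dot marks a gene called. The columns with most dots are the male TA at 24 months (25), the female TA at 27 months (14) and the male diaphragm and male soleus (13 each, at 27 and 24 months).

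Zbp1 was called in 4 of the 8 comparisons, Igtp, Oas1a and Oas2 in 3, and Irf1, Irf7, Irf8, Oas3, Ifit3, Rsad2, Gbp3 and Iigp1 in 2. In 11 further genes a single comparison was called, and 21 genes were called in none. Oas3 had a fold change above 1 in 8 of 8 comparisons (log2 from 1.07 to 2.06), although it was called in 2. Of the 352 pairs of a gene with a muscle and sex, 6 had all libraries at 27 months above all at 6 months: Igtp in the female gastrocnemius, the female TA and the male diaphragm, and Irf7, Zbp1 and Rtp4 in the male diaphragm. The share of all genes so separated is not given here, so this count has no background to be set against.

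**Figure D3:**
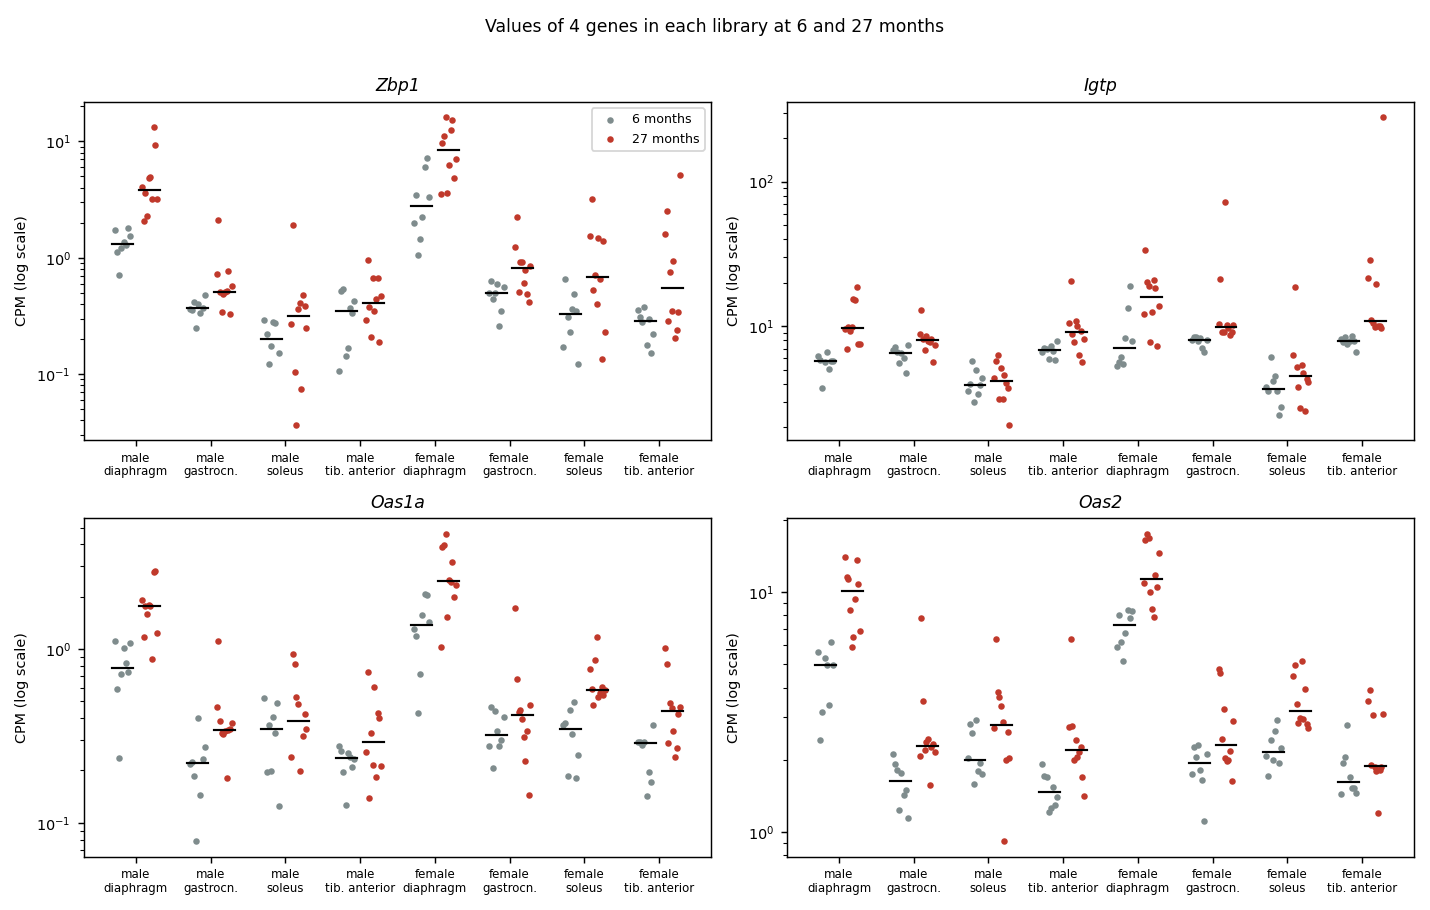
CPM (y axis, log scale) of Zbp1, Igtp, Oas1a and Oas2 in each library at 6 months (grey, 8 libraries) and 27 months (red, 10 libraries), with black bars at the medians. Igtp reached 278 CPM in 1 female TA library; values of 0 (Zbp1 in 1 male soleus library at 6 months, Oas1a in 1 at 27 months) cannot be drawn on this axis.

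In the male diaphragm the transcription factors and the oligoadenylate synthetases held most of the calls. Irf1, Irf7, Irf8 and Irf9 (4 of 5 factors), Oas1a, Oas2 and Oas3 (3 of 5), Zbp1 (1 of 5 sensors), Usp18, Igtp, Ifi44, Rtp4 and Lgals3bp were called, and 0 of 3 Ifit genes, 0 of 7 other antiviral effectors and 0 of 3 ADP-ribosylation genes. Oas3 had 0.157, 0.417 and 0.707 CPM (lowest, median and highest of 8 libraries) at 6 months and 0.573, 1.15 and 5.66 CPM at 27 months, a log2 fold change of 2.06 ± 0.65 (adjusted p = 0.0411). Zbp1 had 0.705, 1.32 and 1.79 CPM at 6 months and 2.05, 3.83 and 13.3 CPM at 27 months, and the groups did not overlap (1.91 ± 0.47, adjusted p = 0.0115). Irf8 had 0.418, 3.61 and 4.49 CPM and 2.54, 6.93 and 19.4 CPM, with 9 of 10 old libraries above the highest young one (1.45 ± 0.42, adjusted p = 0.0257).

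Irf7, the master regulator of interferon alpha genes, had 0.313, 1.79 and 2.04 CPM at 6 months and 2.18, 3.85 and 8.92 CPM at 27 months, without overlap (1.37 ± 0.44, adjusted p = 0.0421). Igtp had 3.76, 5.76 and 6.69 CPM and 6.92, 9.69 and 18.6 CPM, also without overlap (0.97 ± 0.23, adjusted p = 0.0075). The smallest adjusted p was that of Oas2, whose median of 4.97 CPM at 6 months stood against 10.1 CPM at 27 months (1.11 ± 0.25, adjusted p = 0.00662).

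Markers of immune cells were also higher at 27 months in the male diaphragm. Of the T and NK cell markers 13 of 15 were called higher, with a sum of 2.35 to 6.13 CPM at 6 months and 3.02 to 57.9 CPM at 27 months, and of the macrophage markers 9 of 21, with sums of 368 to 524 and 397 to 923 CPM. Their part in the rise was not tested. The count of 13 fell to 3 (Igtp, Oas2 and Zbp1) without replicate 7 of 27 months, the highest library of its group, to 6 without replicate 8 and to 8 without replicate 5 of 6 months. With a term for that run in the fit it was 0, with a median of 0.407 and 42 of 44 genes above 0. At 6 months 6 of 8 libraries were in the second run and at 27 months 6 of 10 were in the first, so the run and the age cannot be fully told apart here. The mean log2 CPM of the 44 genes in the first run was 2.21 to 2.70 at 6 months (2 libraries) and 2.65 to 3.02 at 27 months (6 libraries).

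In the female diaphragm the median change was of the same size, 0.536, with 44 of 44 genes above 0, but only Oas2 was called. It had 5.16, 7.29 and 8.40 CPM at 6 months and 7.88, 11.4 and 17.5 CPM at 27 months, with 9 of 10 old libraries above the highest young one (0.81 ± 0.18, adjusted p = 0.0068). Zbp1, the most often called gene elsewhere, had 1.06, 2.80 and 7.15 CPM at 6 months and 3.51, 8.36 and 16.1 CPM at 27 months, with 5 of 10 above the highest young library (1.43 ± 0.46, adjusted p = 0.101). At an unadjusted p below 0.05, 28 genes passed. Here and further on, the share of all genes at this level is not given, so such counts have no background to be set against. The count of 1 was 2 without replicate 5 of 27 months and 3 without replicate 8 of 27 months or replicate 5 of 6 months. Of the immune markers of macrophages, T and NK cells, 0 were called. A difference between the sexes in the change from 6 to 27 months was called for 0 of the 44 genes and for 0% of all genes in the diaphragm, with 0 of the 44 at an unadjusted p below 0.05.

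In the female TA all 6 GTPases were called, together with 2 transcription factors (Irf1 and Irf8), Zbp1, Oas1a, Oas3, Ifit3, Mx1 and Bst2. Iigp1, a GTPase that attacks the vacuoles of intracellular parasites, had 6.77, 11.6 and 19.7 CPM at 6 months and 6.72, 12.9 and 487 CPM at 27 months (2.59 ± 0.60, adjusted p = 0.0011). The median thus moved little, and 4 of 10 old libraries lay above the highest young one. Igtp, of the same family, had 6.68, 7.96 and 8.57 CPM and 9.73, 10.8 and 278 CPM, and all 10 old libraries lay above the young ones (2.41 ± 0.45, adjusted p = 7.04e-05). Zbp1 had 0.152, 0.289 and 0.375 CPM and 0.205, 0.552 and 5.11 CPM (2.20 ± 0.54, adjusted p = 0.00238), with 5 of 10 above.

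Mx1 and Oas3, both near the lower end of what was counted, were called in the female TA with most old libraries above the young ones. Mx1 had 0, 0.0576 and 0.13 CPM at 6 months and 0.0684, 0.272 and 0.642 CPM at 27 months, with 9 of 10 old libraries above the highest young one (2.16 ± 0.52, adjusted p = 0.0016), and Oas3 had 0.0328, 0.0896 and 0.159 CPM and 0.0513, 0.264 and 0.822 CPM, with 8 of 10 above (1.91 ± 0.53, adjusted p = 0.00678).

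The upper end of the GTPases in the female TA was a single library. Replicate 9 of 27 months had 278 CPM of Igtp (the others 9.73 to 28.6), 487 of Iigp1 (6.72 to 88.5) and 143 of Irgm1 (12.3 to 26), 26.2, 44.5 and 9.05 times the median of the others. The 6 GTPases stood at 4.16 to 44.5 times that median, the 5 oligoadenylate synthetases at 1.08 to 3.19 times and the 7 other antiviral effectors at 0.909 to 2.49 times. Cxcl9, a chemokine induced mainly by interferon gamma, stood at 12.5 times, while Ifng itself had 2 counts there. Its sum of macrophage markers (166 CPM) lay within the range of the others (73.2 to 198), as did that of T and NK cell markers (6.76 CPM against 0.691 to 7.51), and its liver genes summed to 593 CPM against 4.86 to 303. Without this library 6 genes were called, Ifit3, Igtp, Mx1, Oas1a, Oas3 and Zbp1, so that 1 of the 6 GTPases remained. Over the whole group, 9 of 21 macrophage markers, 3 of 5 T and NK cell markers tested, 3 of 3 neutrophil markers tested and 8 of 9 liver genes were called higher, and their part in the rise was not tested.

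In the female gastrocnemius Gbp3, Iigp1, Igtp, Zbp1 and Rsad2 were called. Igtp had 6.66, 8.03 and 8.46 CPM at 6 months and 8.75, 9.94 and 72.7 CPM at 27 months, without overlap (1.14 ± 0.26, adjusted p = 0.000593). Iigp1 had 6.03, 9.14 and 13.3 CPM and 4.79, 10.2 and 135 CPM, with only 2 of 10 old libraries above the young ones (1.5 ± 0.44, adjusted p = 0.00848), and Zbp1 had 0.262, 0.495 and 0.632 CPM and 0.415, 0.816 and 2.22 CPM, with 6 of 10 above (0.92 ± 0.36, adjusted p = 0.0461).

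The highest Igtp and Iigp1 values of the female gastrocnemius came from replicate 4 of 27 months, at 7.51 and 13.5 times the median of the others, with Irgm1 at 2.91 times and Cxcl9 at 4.39 times. In the same library the 5 oligoadenylate synthetases stood at 0.664 to 0.912 times that median and the 3 Ifit genes at 0.586 to 0.886 times. Without it 4 genes were called, Gbp3, Oas2, Oasl2 and Rsad2. Other single libraries moved the count as well, to 2 without replicate 0 or 1 of 27 months, to 8 and 10 without replicates 5 and 8, and to 3 without replicate 0, 5 or 6 of 6 months. The macrophage markers were called in 3 of 21 cases in this muscle, and their sum in replicate 4 (143 CPM) was within the range of the others (116 to 270).

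In the female soleus Zbp1, Irf7, Ifit1, Ifit3, Oas1a, Oas2 and Rsad2 were called. Of the 6 GTPases 0 were called, with log2 fold changes of 0.31 to 0.816 and a median of 0.552, where that of the 44 genes was 0.418. Zbp1 had 0.122, 0.328 and 0.654 CPM at 6 months and 0.134, 0.682 and 3.22 CPM at 27 months, with 6 of 10 old libraries above the young ones (1.61 ± 0.59, adjusted p = 0.0478). Irf7 had 0.732, 0.967 and 1.29 CPM and 0.385, 1.95 and 4.91 CPM, with 8 of 10 above (1.23 ± 0.39, adjusted p = 0.0196). Ifit3, which holds viral RNA in a complex with Ifit1, had 0.937, 2.19 and 2.71 CPM and 2.04, 4.37 and 8.14 CPM, with 9 of 10 above (1.19 ± 0.33, adjusted p = 0.00778). Of the 21 macrophage markers 0 were called, and their sum was 147 to 231 CPM at 6 months and 111 to 297 CPM at 27 months. Without replicate 5 of 27 months the count was 3.

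In the male limb muscles 0 genes were called at 27 months, also by limma-voom, and the number with an unadjusted p below 0.05 was 7, 0 and 2 in the gastrocnemius, soleus and TA. DESeq2 called 0 as well, but it gave no adjusted p for 13, 27 and 27 of the 44 genes, which could not be called. Of the 44 genes 37, 28 and 39 had values above 0. Igtp passed the adjusted p without the fold limit in the gastrocnemius, from a median of 6.54 to 8.06 CPM (0.39 ± 0.12, adjusted p = 0.0169), and in the TA, from 6.84 to 9.07 CPM (0.53 ± 0.19, adjusted p = 0.0426). These fits share their estimate of the spread with the male libraries at 24 months, 1 of which stood far from the rest.

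At 24 months 10, 13 and 25 of the 44 genes were called higher in the male gastrocnemius, soleus and TA (of all genes 3.15%, 1.64% and 4.62%), with Mx1 at a log2 fold change of 2.59 ± 0.63, 5.24 ± 1.26 and 5.16 ± 1.03. These values came from the library numbered replicate 8 in each of the 3 muscles. Its mean log2 CPM over the 44 genes was 3.63, 5.39 and 4.76 in the gastrocnemius, soleus and TA, and the highest of the others were 2.08, 2.22 and 2.24. It was above every other library of its group for 42, 44 and 43 of the 44 genes. In the median gene it stood at 3.77, 12.1 and 7.95 times the median of the others.

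Within replicate 8 the oligoadenylate synthetases and Ifit genes stood further from the other libraries than the GTPases did in each of the 3 muscles. The oligoadenylate synthetases stood at 8.66 to 73.3, 22.2 to 419 and 20.8 to 284 times the median of the others in the gastrocnemius, soleus and TA, and the Ifit genes at 6.36 to 11.9, 20.6 to 56.6 and 14.8 to 27.1 times. The GTPases stood at 1.80 to 5.43, 4.29 to 12.3 and 2.95 to 8.29 times. Mx1 had the highest ratio in the soleus (706) and TA (298) and Oas3 in the gastrocnemius (73.3), and Ifi27, a mitochondrial protein gene, had the lowest in each (1.12, 1.37 and 0.936). Irf7 was at 19.9, 76.9 and 47.4 CPM where the medians of the others were 1.03, 1.07 and 1.13, and Zbp1 at 12.2, 46.9 and 35.4 CPM against 0.423, 0.333 and 0.349.

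Macrophage markers in replicate 8 summed to 547, 1378 and 788 CPM, where the others reached 168, 213 and 184, and T and NK cell markers to 8.06, 14.9 and 6.99 CPM, where they reached 1.65, 0.977 and 3.08. Endothelial markers (344, 315 and 382 CPM) were within the range of the others. The part of these cells was not tested. In the diaphragm the library numbered replicate 8 at 24 months had the lowest mean of its group (2.07), and the labels do not say whether a number stands for 1 mouse.

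Without replicate 8 of 24 months, 0 genes were called higher at 24 months in each of the 3 male limb muscles, and Rsad2 was called lower in the soleus and TA. At 27 months, a comparison in which this library enters only through the shared estimate of the spread and the scaling, 9 genes were then called in the gastrocnemius (Ifit1, Irf7, Isg15, Mx1, Oas1a, Oas2, Oas3, Oasl1 and Zbp1), 0 in the soleus and 4 in the TA (Ifit1, Irf7, Oas2 and Oasl1), with medians of 0.213, 0.0458 and 0.183. The share of all genes called in these fits is not given here. In the gastrocnemius at 27 months replicate 1 also stood far above its group, with a mean log2 CPM of 2.43 against 1.72 in the next library. It was above all others for 38 of the 44 genes, and no fit left out both libraries.

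**Figure D4:**
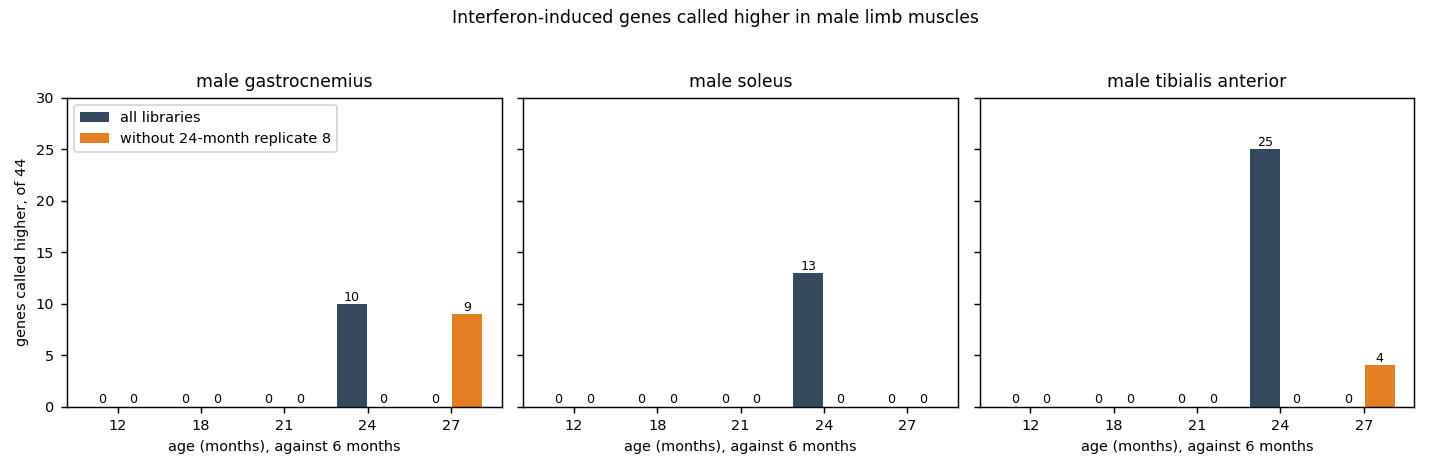
Number of the 44 genes called higher at each age against 6 months (y axis) in the male gastrocnemius, soleus and TA, with all libraries (dark bars) and without replicate 8 of 24 months (orange bars). At 24 months the counts go from 10, 13 and 25 to 0, and at 27 months from 0, 0 and 0 to 9, 0 and 4.

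At the ages in between few of the 44 genes were called. At 12 and 18 months 0 were called in any muscle or sex. Of all genes, called in either direction, the shares in the male diaphragm, gastrocnemius, soleus and TA were 0.0622%, 0.315%, 0.0456% and 0.152% at 12 months and 0.168%, 1.23%, 0.326% and 0.787% at 18 months, and in the female muscles 0%, 0.195%, 0.117% and 0.144% and then 0.216%, 4.01%, 1.66% and 1.31%. At 21 months Bst2 (1.23 ± 0.34, adjusted p = 0.0197), Igtp (0.72 ± 0.24, adjusted p = 0.0445) and Oasl1 (1.89 ± 0.58, adjusted p = 0.0305) were called higher in the male diaphragm, where 5.24% of all genes were, and 0 of these were called without replicate 3 of that age, 1 of the libraries with liver transcripts. Gbp7 was called lower in the male gastrocnemius (-0.75 ± 0.22, adjusted p = 0.0179), the one fall among the 44, where 0.775% of all genes were.

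At 24 months 4 genes were called higher in the male diaphragm (Irf7, Oas2, Usp18 and Zbp1, with 0.448% of all genes), and 0 of them without replicate 4, whose mean of 4.21 stood above 3.01 in the next library. The female calls at 24 months were Oas2 in the diaphragm (0.599% of all genes), Irf7 and Oas2 in the soleus (1.88%), Mx1, Oas3 and Zbp1 in the TA (3.01%) and 0 in the gastrocnemius (3.4%). In the female TA the log2 fold change of Mx1 was 2.28 ± 0.51 at 24 months and 2.16 ± 0.52 at 27 months, each against the same 6-month libraries.

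A trend over all 6 ages, fitted on log2 of age, was called upward for 15, 10, 3 and 10 of the 44 genes in the male diaphragm, gastrocnemius, soleus and TA and for 3, 7, 6 and 10 in the female ones, and downward for 0. Of all genes 3.78%, 5.42%, 1.62% and 4.14% were called upward in males and 1.12%, 4.91%, 2.22% and 6.2% in females. Oas3 was called in 7 of the 8 muscles and sexes and Zbp1 and Oas2 in 6. Without replicate 8 of 24 months in the male limb muscles these became 5 for Oas3, 4 for Zbp1 and 6 for Oas2. The fitted change of Oas2 from 6 to 27 months was 1.12 ± 0.24 in the male diaphragm (adjusted p = 0.00202) and 0.81 ± 0.16 in the female diaphragm (adjusted p = 0.000736). In the male limb muscles the counts were 9, 1 (downward) and 3 without replicate 8 of 24 months, and in the male diaphragm the count of 15 was 2 with a term for the run.

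**Figure D5:**
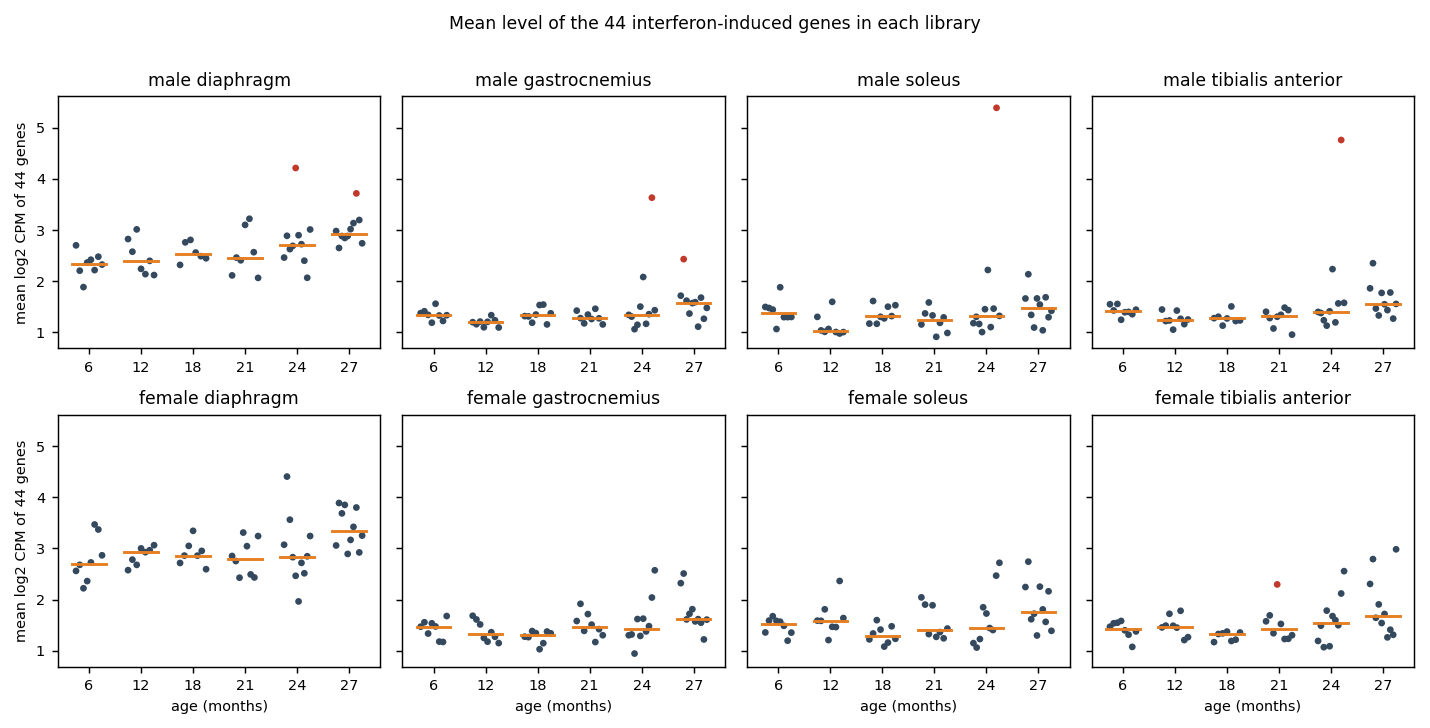
Mean log2 CPM of the 44 genes (y axis) in each of the 407 libraries by age (x axis), with orange bars at the group medians and red points for libraries far from the rest of their group by Dixon's test. Group medians stay between 1.03 and 1.76 in the limb muscles and between 2.35 and 3.33 in the diaphragm, and the red points of male limb muscles at 24 months reach 3.63, 5.39 and 4.76.

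Whether ageing acted differently in the diaphragm and the limb muscles was tested as the difference between the 2 changes from 6 to 27 months. In males Irf1 (0.76 ± 0.21, adjusted p = 0.0138) and Irf8 (1.29 ± 0.35, adjusted p = 0.0115) rose more in the diaphragm, with 2.36% of all genes called in this direction. Irf1 changed by 0.69 ± 0.20 in the male diaphragm and by 0.02 ± 0.13, -0.26 ± 0.23 and 0.08 ± 0.16 in the gastrocnemius, soleus and TA, and Irf8 by 1.45 ± 0.42 and by 0.12 ± 0.13, 0.12 ± 0.42 and 0.26 ± 0.14. With the run as a term 0 were called. Markers of other cells differed in males too. All 15 T and NK cell markers (median 1.97), 20 of 21 macrophage markers (0.57) and 4 of 7 neutrophil markers (0.301) were above 0. Of these markers 0 were called. Of 8 B and plasma cell markers 7 were above 0 (1.6), with Mzb1 called. All 9 liver genes were above 0 (3.59), with Apoa2, Mup3 and Serpina1a called, and replicate 6 of the old male diaphragm held liver transcripts. Their part in the difference was not tested. In females 0 genes were called (2.04% of all genes in either direction), by limma-voom and DESeq2 too, and 3 had an unadjusted p below 0.05.

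Over all ages, the log2 difference of females from males in the diaphragm was above 0 for 41 of 44 genes, with a median of 0.311. Ifi44 (0.80 ± 0.12, adjusted p = 4.3e-07), Gbp3 (0.68 ± 0.11, adjusted p = 1.02e-06) and Zbp1 (0.68 ± 0.20, adjusted p = 0.00881) were called higher, where 3.12% of all genes were. At the adjusted p without the fold limit 30 passed, where 10.3% of all genes did. Ifi44 at 6 months had 4.17, 5.33 and 8.62 CPM in females and 2.07, 2.53 and 4.39 CPM in males, with a small overlap. DESeq2's size factors moved the share of higher among all calls from 60.3% to 72.4%. The gastrocnemius, soleus and TA had 0 of the 44 called, where 8.17%, 3.97% and 5.27% of all genes were called in either direction, and 19, 3 and 10 of the 44 had an unadjusted p below 0.05. The medians there were 0.0778, -0.00187 and -0.016.

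The change with age differed between the sexes for Igtp and Iigp1 in the TA. It was larger in females by 1.87 ± 0.47 on the log2 scale for Igtp (adjusted p = 0.0185) and by 2.40 ± 0.67 for Iigp1 (adjusted p = 0.0395), where 0.428% of all genes were called in this direction. In males Igtp changed by 0.53 ± 0.19 and Iigp1 by 0.19 ± 0.34. Without replicate 9 of the female TA at 27 months 0 were called, as with limma-voom and with the replicate number as a block. Markers of other cells had differences in the same direction, with 0 called: all 21 macrophage markers (median 0.574), all 8 T and NK cell markers tested (0.812), all 7 neutrophil markers tested (2.17) and all 9 liver genes (3.00) were above 0, and their part was not tested. In the other 3 muscles 0 of the 44 were called (0%, 0.572% and 0.34% of all genes in either direction in the diaphragm, gastrocnemius and soleus), with an unadjusted p below 0.05 for 0 in the diaphragm, 5 in the gastrocnemius and 2 in the soleus.

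The interferons were barely counted. Ifnb1 had 0 counts in all 407 libraries, which allows up to 3 counts over all of them together by counting error alone. The numbered interferon alpha genes had at most 8 counts in a library, and Ifnab (interferon alpha B) was counted in 48 libraries, with at most 12 counts. Ifng was counted in 94 libraries, with 10 counts or more in 17 and at most 61 in a female diaphragm at 27 months. In the male diaphragm Ifng was at 0 in all 8 libraries at 6 months and at a median of 0.0443 and up to 0.288 CPM at 27 months, and it was called higher there.

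Of the genes of the interferon receptors and their signalling (Ifnar1, Ifngr1 and Jak1 among them), those named here as called at 27 months were Ifnlr1, a subunit of the lambda interferon receptor, in the male gastrocnemius and soleus, and Socs3, a feedback inhibitor, in the male gastrocnemius. Of 20 genes of nucleic acid sensing, Mb21d1 (cGAS), Tmem173 (STING) and Adar were called higher in the male diaphragm, Tlr7 in the female diaphragm and Aim2 in the female soleus and TA.

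A further list held 77 other interferon-induced genes. At 27 months 19 of 73 tested were called higher in the male diaphragm, 2 of 73 in the female diaphragm, 5 of 65, 0 of 69 and 1 of 64 in the male gastrocnemius, soleus and TA, and 11 of 70, 6 of 71 and 18 of 68 in the female ones, with 1 called lower, in the female soleus. The share of all genes called higher was, in the same order, 4.16%, 0.543%, 3.88%, 0.808%, 2.81%, 4.08%, 1.72% and 5.93%. In the male soleus and TA the list thus did not stand above that share. Cxcl10, a chemokine that draws T cells, was called in the gastrocnemius and TA of both sexes. In the TA it had 0.0365, 0.111 and 0.277 CPM at 6 months and 1.31, 2.06 and 4.45 CPM at 27 months in females (3.92 ± 0.53, adjusted p = 1.71e-07), and 0.0634, 0.108 and 0.228 CPM and 0.31, 1.12 and 2.77 CPM in males (3.21 ± 0.80, adjusted p = 0.00343). The groups did not overlap in either sex. Of the 44 genes 1 in females (Igtp) and 0 in males were without overlap in the TA, and the share of all genes is not given here.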

How the data were processed

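Total RNA was depleted of ribosomal RNA and sequenced strand-specifically as pairs of 76 bases. The authors aligned reads to mm10 in ArrayStudio with their own gene model and deposited raw counts per gene and library. Its version is not named in the sources used here. From these counts, log2 values and CPM were computed after TMM scaling over all 407 libraries (prior count 2 for log2 values). For symbols on more than 1 row (329 symbols) the row with the highest total count was kept. The other rows (633 rows, 0.0335% of counts) were left out.

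Each muscle and sex was fitted over all 6 ages with edgeR 4.0.16 (quasi-likelihood test, filterByExpr, R 4.3.3), with Benjamini-Hochberg adjustment over all genes tested. A gene was called at an adjusted p below 0.05 and a fold change above 1.5, and ± marks the standard error, derived from the fold change and the F statistic. Diaphragm was compared with the mean of the limb muscles, and the sexes with each other, in fits over the 2 sexes or 4 muscles. Alternatives were limma 3.58.1 (voom), DESeq2 1.42.0, other limits, terms for replicate number or run of sample numbers, and leaving out libraries. The tests were checked on simulated data. Nothing in the labels ties libraries to separate mice beyond the replicate number, but the paper counts the samples of a muscle as animals. Within a muscle, sex and age, p-values thus measure the spread between libraries of different mice. For the male diaphragm at 21 months the paper lists fewer samples than the 7 libraries used here.

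Named genes were, for each muscle and sex, the 3 called members with the largest rise and fall at 27 months, those called in most comparisons (up to 8), up to 5 with the smallest p in each test of a difference in change, the highest and lowest by CPM in each muscle, and up to 3 called genes per pathway list. The members and all lists were chosen with earlier results of these data known. Libraries described singly, and other named values, were chosen after their values were seen. A gene of the signalling list is not reported here.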

Additional observations from a re-analysis of the deposited data

Results flagged for a closer look

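The mean log2 CPM of the 44 genes lay far from the rest of its group by Dixon's test at 95% in 7 of 48 groups, where chance gives about 1 in 20. In males these were diaphragm at 24 months replicate 4 (4.21, the others 2.07 to 3.01), diaphragm at 27 months replicate 7 (3.72, the others 2.65 to 3.20), gastrocnemius at 24 months replicate 8 (3.63, the others 1.06 to 2.08), gastrocnemius at 27 months replicate 1 (2.43, the others 1.11 to 1.72), soleus at 24 months replicate 8 (5.39, the others 1.01 to 2.22) and TA at 24 months replicate 8 (4.76, the others 1.13 to 2.24). In females it was the TA at 21 months replicate 3 (2.29, the others 1.23 to 1.69). In each the library was the highest, and it was above all others for 24 to 44 of the 44 genes. Of the 2112 tests of single genes 326 (15.4%) passed the same limit, 112 of them among the 132 tests of male limb muscles at 24 months. The same replicate number was highest in all 3 limb muscles in 2 of 12 combinations of sex and age, replicate 8 of males at 24 months and replicate 1 of males at 27 months.

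Effects that differed between groups by a test of the difference were the change from 6 to 27 months in the male diaphragm against the limb muscles for Irf1 (0.76, adjusted p = 0.0138 by edgeR) and Irf8 (1.29, adjusted p = 0.0115), and the change in the female against the male TA for Igtp (1.87, adjusted p = 0.0185) and Iigp1 (2.40, adjusted p = 0.0395). Without replicate 9 of the female TA at 27 months, 0 genes were called in the second.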

How the results depend on the processing

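The counts of the 44 genes called at 27 months were 13, 0, 0 and 0 in the male diaphragm, gastrocnemius, soleus and TA and 1, 5, 7 and 14 in the female ones, and those of the trend were 15, 10, 3 and 10 and 3, 7, 6 and 10. Counts that moved by over 1.5 times are given here, and the cause of these moves was not tested. With Bonferroni adjustment 11 genes were called in the male diaphragm against the limb muscles at 6 months, 1 in the female TA at 27 months, and 0 at 27 months in the male diaphragm and the female diaphragm, gastrocnemius and soleus, in each trend and in each difference of changes. DESeq2 gave 2, 0 and 1 for the trend in the male gastrocnemius, soleus and TA, where it left 13, 30 and 28 of the 44 genes without an adjusted p, so these counts cannot be set against those over 44 genes, and 4 for the female diaphragm at 27 months. With limma-voom these 3 trends gave 6, 0 and 1, the female gastrocnemius, soleus and TA gave 1, 4 and 5 at 27 months and 2, 3 and 6 for the trend, the male diaphragm against limb change gave 4, the sexes over all ages in the soleus 3 and the sex difference of the change in the TA 0. Without the fold limit the male gastrocnemius and TA gave 1 each and the female gastrocnemius 14 at 27 months, the trend gave 15 and 16 in the female gastrocnemius and TA, and the sexes over all ages gave 30, 18, 1 and 8 in the diaphragm, gastrocnemius, soleus and TA. Without the filter on low counts the male soleus trend gave 5 and the female gastrocnemius 3.

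Mice were killed for collection, so within a muscle and sex libraries of different ages that share a replicate number are from different mice. They did not deviate together as a rule (medians of the correlations from -0.05 to 0.07), but single pairs ran from -0.74 to 0.78. The correlation was above 0.1 in 59 of 122 pairs of the male gastrocnemius and 47 of 122 of the female one. In the male soleus it was above 0.1 in 16 of 122. Such a check cannot find libraries of the same mouse, and the numbers were not taken as pairs. A block on the number within a muscle is thus not a block on mice. This check did not cover the same number in different muscles at 1 age, where replicate 8 of males at 24 months and replicate 1 of males at 27 months were highest in all 3 limb muscles, and the fits over 4 muscles treat such libraries as independent. With the replicate number as a block the male diaphragm gave 7 and the female gastrocnemius and TA 1 and 5 at 27 months, the trend gave 8, 3, 0 and 0 in the male muscles and 1, 3 and 5 in the female gastrocnemius, soleus and TA, the male diaphragm against limb change gave 4, the sexes over all ages in the soleus 1 and the sex difference of the change in the TA 0. With a term for the run of sample numbers, which the gastrocnemius does not allow, the male diaphragm gave 0 and the female diaphragm 3 at 27 months, the trend gave 2, 0 and 1 in the male diaphragm, soleus and TA, the male diaphragm against limb comparison at 6 months gave 14, its change 0, the sexes over all ages in the diaphragm 6 and the sex difference of the change in the TA 1.

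Leaving out each replicate number in turn gave, at 27 months, 3 to 13 in the male diaphragm, 0 to 1 in the male gastrocnemius and TA, 0 in the male soleus, and 1 to 3, 2 to 10, 2 to 9 and 6 to 15 in the female diaphragm, gastrocnemius, soleus and TA. Single libraries were left out as alternatives chosen after seeing the data, with the counts at 27 months given in the report. Without replicate 8 of 24 months the male soleus trend gave 1 (downward), the male TA trend 3, the sexes over all ages 4 in the soleus and 2 in the TA, and the sex difference of the change in the soleus 1. Without replicate 8 of 27 months the male TA gave 1. Of 382 values of single genes under the alternatives, 0 reversed, 280 kept the call and 102 lost it. Depth limits the rarest genes most, such as Mx1 and Oas3 in the limb muscles.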

Other observations

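A library of the female diaphragm at 24 months, replicate 1, chosen after its values were seen, held the GTPases at 2.56 to 5.96 times and the oligoadenylate synthetases at 1.76 to 24.9 times the median of the others. It had 48 counts of Ifng, a T and NK cell marker sum of 146 CPM where the others reached 26.1, and a macrophage marker sum of 1205 CPM where they reached 789. The part of these cells was not tested.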
